A study of Homo sapiens with 4 samples.

Results

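Hemidesmosome integrin and laminin genes were examined in MDA-MB-231, an established line of human breast carcinoma cells with mesenchymal and basal-like features. The cells had been transfected with a plasmid for FOXC1, a transcription factor of the forkhead family, or with empty vector as control. The genes were chosen by symbol. They are the chains of the alpha6beta4 integrin (ITGA6 and ITGB4), the epithelial laminin chains LAMA3, LAMB3 and LAMA5, the hemidesmosome components COL17A1, PLEC and DST, and the tetraspanin CD151. Of these 9 genes 7 had a named probe set, 1 each, among 18417 genes measured, while LAMA3 and COL17A1 had none and were not analysed here. The FOXC1 group and the vector group each held 2 arrays, described as biological replicates. Both were grown in DMEM with 10% fetal bovine serum, penicillin and streptomycin, and transfected with Lipo2000, a lipid reagent. Neither the time after transfection nor whether pools or clones were used is given in the sources used here. The limma p-values rest on the spread between arrays of a group, borrowed for the most part across probe sets of similar signal. This spread may not cover separate transfections. The transcript of FOXC1 was not analysed here, and no check of the labels against it was made.

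Hemidesmosomes are the anchoring junctions that fasten the basal side of epithelial cells to the basement membrane. The integrin alpha6beta4 spans the plasma membrane and binds laminins outside the cell, above all laminin-332, which contains the LAMA3 and LAMB3 chains. Inside the cell the long tail of beta4 binds plectin, the product of PLEC, which ties the complex to intermediate filaments together with an epithelial product of DST. In carcinoma cells alpha6beta4 is also found outside hemidesmosomes, where it is known for its part in migration, invasion and growth factor signalling.

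Each array gave a PLIER signal, a linear intensity that summarises the probes of a gene, and the median over all probe sets lay between 489 and 512. Log2 correlations across the named probe sets, which are not independent replicates, were at least 0.998 within a group and at most 0.99 between groups. Changes below are FOXC1 minus vector on the scale of log2(signal + 16) and were tested with limma. A gene was called at a Benjamini-Hochberg adjusted p under 0.05 over the whole table. The mesenchymal-type markers VIM, AXL and CD44 were bright, with mean signals of 16248, 13101 and 12722 in FOXC1 cells and 16879, 12874 and 10832 in vector cells. This is not a check of the identity of the line. The oestrogen receptor ESR1, which these cells lack, stayed below 277, the 25th percentile of mean signal, in all 4 arrays.

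Of the 7 measured genes 5 were lower in FOXC1 cells (ITGB4, LAMA5, ITGA6, PLEC and LAMB3), 0 were higher, and DST and CD151 were not called. ITGB4 fell 5.31-fold and LAMA5 1.88-fold, while the other 3 falls were between 1.08-fold and 1.23-fold. The ITGB4 signal was dim in FOXC1 cells, so that its fold may be an underestimate. Over all 18417 genes 15.5% were called lower and 15.9% higher (31.4% in either direction), so that small called changes were common. Calls were more frequent among brighter genes. A new fit without the probe sets below the 50th percentile called 2484 genes higher and 2336 lower, against 2925 and 2852 in the reported fit. The shares over all genes are not matched for signal, and all 7 genes lay above the 50th percentile of mean signal over the 4 arrays. The median log2 change was -0.20 over the 7 genes and 0.03 over all genes. The arrays of the groups did not overlap in any of the 7 genes, as in 63.5% of all genes. Both FOXC1 arrays lay below both vector arrays in 6 of them, against 26.4% of all genes, and above in DST, against 37.1%. A fall of at least 2-fold, as ITGB4 showed, was called in 0.69% of all genes, and a rise of that size, which none of the 7 showed, in 0.271%. In RNA from whole cultures, fewer cells that express a gene and less RNA per cell cannot be told apart.

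**Figure D1:**
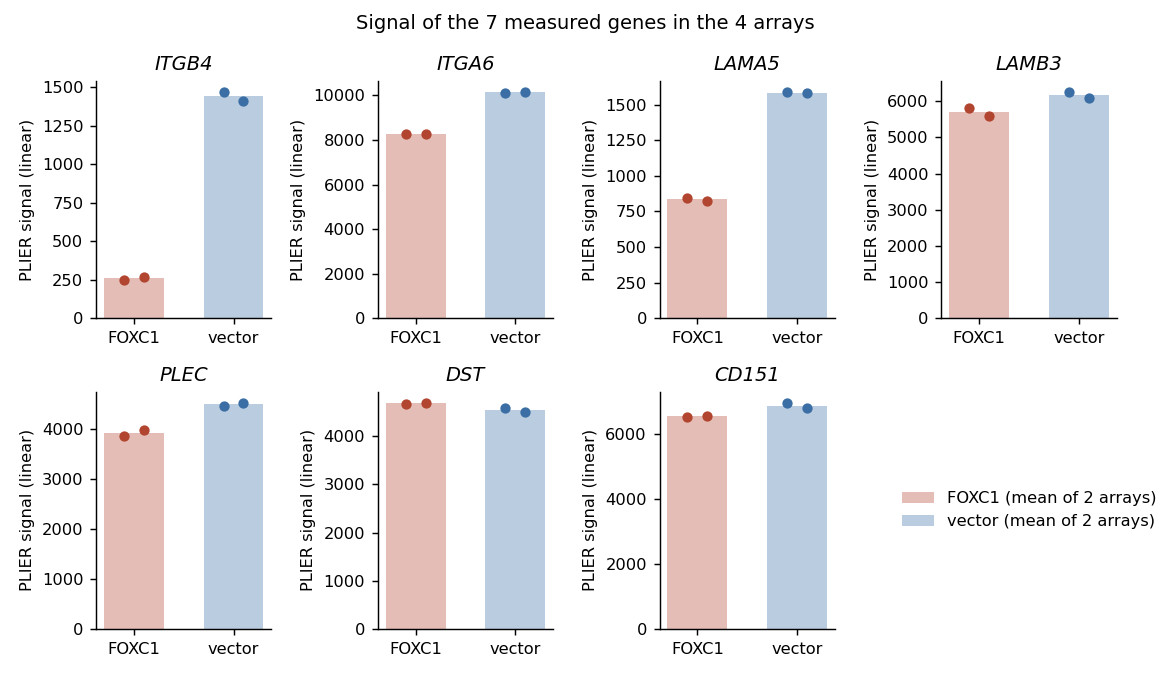
PLIER signal (linear, each axis from 0) of the 7 measured genes in FOXC1 arrays and vector arrays, with points for the arrays and bars for the mean of 2 arrays. ITGB4 averages 258 in FOXC1 cells and 1441 in vector cells and LAMA5 834 and 1585, while the other 5 genes differ by at most 1.23-fold.

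ITGB4 encodes the beta4 chain, which pairs with alpha6 alone. Its signal was 251 and 265 in FOXC1 cells, against 1468 and 1414 in vector cells. Both FOXC1 arrays lay far below both vector arrays, and the arrays of a group differed little from each other. The log2 change was -2.41 ± 0.07 (SE), with a 95% interval of -2.55 to -2.27 and a limma adjusted p of 8.28e-17. In order of signed change ITGB4 stood in place 15 from the lowest among 18417 genes. Its signals in FOXC1 cells lay below 277, the 25th percentile of mean signal. No detection calls were used, so whether transcript remained in FOXC1 cells is not shown. The fold of 5.31 was taken after 16 was added to each signal, and with an offset of 1 it was 5.57. Either fold may understate the fall of the transcript if part of the FOXC1 signal is background.

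ITGA6 encodes the alpha6 chain, which can pair with beta4 or with beta1. It had signals of 8272 and 8249 in FOXC1 cells, against 10131 and 10139 in vector cells. The groups did not overlap, and the fall of 1.23-fold (log2 -0.29 ± 0.02 SE, adjusted p = 3.03e-09 in limma) was small beside that of its partner chain. The difference between the log2 values of ITGB4 and ITGA6 was -4.95 and -4.88 in the FOXC1 arrays and -2.77 and -2.83 in the vector arrays, so that the shift between groups was -2.12. The arrays did not overlap in this measure either. An exact two-sided permutation test gave p = 0.333, which is the smallest p that 2 arrays against 2 can give, and the same held for the other 2 pairs of partner genes compared in this way.

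ITGB1, the other partner of alpha6, was not called (log2 0.02 ± 0.02 SE), with signals of 9951 and 9716 in FOXC1 cells, against 9677 and 9784 in vector cells, which overlapped. CD151 encodes a tetraspanin that binds laminin-binding integrins in the membrane. Its signals were 6537 and 6556 in FOXC1 cells, against 6952 and 6795 in vector cells. The FOXC1 arrays were both lower, by 1.05-fold, and the adjusted p of 0.056 in limma missed the threshold. The 95% interval of its log2 change was -0.13 to -0.01. CD151 was called lower with quantile normalization (adjusted p = 0.0153) and with filters on dim probe sets (0.0437 and 0.0337 at the 25th and 50th percentile). It was not called with other settings, such as either other offset or median centring. Over 16 alternatives its log2 change ranged from -0.112 to -0.047.

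**Figure D2:**
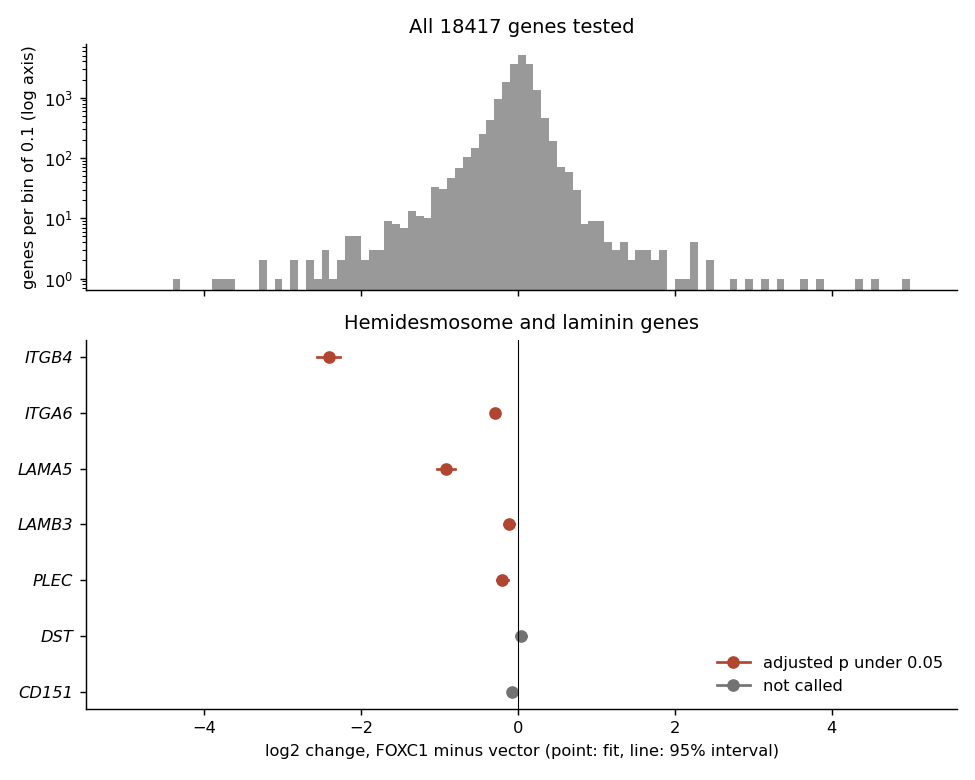
Upper panel, number of genes (log axis) per bin of log2 change (FOXC1 minus vector) for all 18417 genes; lower panel, log2 change of the 7 measured genes with its 95% interval. ITGB4 at -2.41 and LAMA5 at -0.91 lie left of most genes, while LAMB3, PLEC, CD151 and DST lie between -0.20 and 0.04.

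Among the laminin chains, LAMA5 changed most. It encodes the alpha5 chain of laminins that are widespread in basement membranes. LAMA5 had signals of 842 and 826 in FOXC1 cells, against 1586 and 1583 in vector cells. The arrays of each group lay close together and the groups were far apart, with a log2 change of -0.91 ± 0.05 (SE) and a limma adjusted p of 1.53e-11. LAMB3, the beta chain of laminin-332, had signals of 5810 and 5606 in FOXC1 cells, against 6248 and 6081 in vector cells. The groups did not overlap but the gap was small, with a log2 change of -0.11 ± 0.03 (SE, adjusted p = 0.00639 in limma). Without vector replicate 1 LAMB3 was not called (log2 -0.09, adjusted p = 0.106), nor when variances were moderated with no trend (0.161), nor when unnamed probe sets joined the fit (0.0585).

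The beta and gamma chains that assemble with LAMA5 are LAMB1 or LAMB2 and LAMC1. LAMB2 fell 1.18-fold (log2 -0.24 ± 0.03 SE) and LAMC1 1.14-fold (log2 -0.19 ± 0.03 SE), with limma adjusted p of 8.43e-06 and 5.92e-05. LAMB1 was not called (log2 0.05 ± 0.04 SE). The difference between LAMA5 and LAMC1, a pair chosen after their values were seen, was -2.31 and -2.35 in FOXC1 arrays and -1.60 in each vector array on the log2 scale. In all, 2 of 8 other laminin chains measured fell and 0 rose, with a median log2 change near 0. The called share of 25%, all lower, stands beside 15.5% of all genes called lower and 31.4% called in either direction. Of laminin-332 itself, LAMB3 was the only chain analysed here.

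In the plaque, PLEC had signals of 3870 and 3989 in FOXC1 cells, against 4476 and 4531 in vector cells. The fall of 1.15-fold (log2 -0.20 ± 0.03 SE, adjusted p = 6.73e-05 in limma) put both FOXC1 arrays below both vector arrays. DST encodes dystonin, whose epithelial form is the plakin of the hemidesmosome and whose other forms serve muscle and nerve. DST had signals of 4674 and 4688 in FOXC1 cells, against 4581 and 4495 in vector cells. It was slightly higher in both FOXC1 arrays but was not called (log2 0.04 ± 0.03 SE, 95% interval -0.02 to 0.11, adjusted p = 0.305 in limma). A probe set that sums over the DST transcripts does not tell these forms apart. The difference between PLEC and DST was -0.27 and -0.23 in FOXC1 arrays, against -0.03 and 0.01 in vector arrays, a shift of -0.24 on the log2 scale with no overlap.

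Promoter sequences show the DNA before the start of 3 of the genes that fell, namely ITGA6, LAMB3 and LAMA5. They are the 250 bases upstream of the most upstream listed start, from RefSeq (GRCh38.p14), written 5′ to 3′ on the strand of the gene. ITGA6 lies at chr2:172427086-172427335 (+ strand), LAMB3 at chr1:209652426-209652675 (- strand) and LAMA5 at chr20:62367313-62367562 (- strand). Capitals mark every match, on either strand, to the forkhead core TAAANA, the AP-1 site TGANTCA, the E-box CACCTG, which ZEB and SNAI repressors are known to bind, and the GC box GGGCGG.
ITGA6: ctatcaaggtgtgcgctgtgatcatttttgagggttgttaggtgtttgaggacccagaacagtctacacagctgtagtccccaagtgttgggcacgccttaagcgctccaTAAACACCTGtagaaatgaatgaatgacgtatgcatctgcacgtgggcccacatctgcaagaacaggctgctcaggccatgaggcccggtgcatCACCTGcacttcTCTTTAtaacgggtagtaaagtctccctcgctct
LAMB3: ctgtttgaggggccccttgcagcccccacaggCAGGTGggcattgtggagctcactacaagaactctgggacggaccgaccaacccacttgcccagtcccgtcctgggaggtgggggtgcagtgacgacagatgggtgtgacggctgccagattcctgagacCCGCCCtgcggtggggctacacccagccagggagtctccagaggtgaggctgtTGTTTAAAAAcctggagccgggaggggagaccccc
LAMA5: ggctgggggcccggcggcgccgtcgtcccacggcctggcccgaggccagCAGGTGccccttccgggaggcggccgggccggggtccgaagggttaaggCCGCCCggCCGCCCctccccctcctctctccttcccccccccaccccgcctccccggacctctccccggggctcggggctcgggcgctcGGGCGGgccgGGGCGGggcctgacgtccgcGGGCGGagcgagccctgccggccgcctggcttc

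The ITGA6 window held 2 forkhead cores and 2 E-boxes, and the first core overlapped the first E-box. LAMB3 held 2 forkhead cores that overlapped each other, 1 E-box and 1 GC box. LAMA5 held 0 forkhead cores, 1 E-box and 5 GC boxes in a window of 82.8% G and C. None of the 3 windows held the AP-1 site. Among 27305 RefSeq promoter windows of the same length, 35.3% held the forkhead core, 17.5% the E-box, 42.2% the GC box and 6.57% the AP-1 site, so that forkhead cores and GC boxes are common letters. A match is a description of the sequence and not evidence that a factor binds there. The window of DST, which was not called, held 4 GC boxes and 0 of the other motifs. The promoter table did not list ITGB4, PLEC or CD151.

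The genes next to each member on its chromosome were compared. For ITGB4, on chromosome 17, the 5 measured genes on each side had log2 changes between -0.19 and 0.25, with a median of -0.01. In that set only WBP2 was called lower (log2 -0.19) and only SMIM5 higher (log2 0.25), both picked after their values were seen. None of the 10 neighbours came near the -2.41 of ITGB4. For LAMA5, on chromosome 20, the 10 neighbours lay between -0.28 and 0.17 with a median of 0.10, and none fell as far as LAMA5. For ITGA6, on chromosome 2, 5 neighbours rose, the median was 0.12, and only PDK1, named after its value was seen, fell (log2 -0.38), further than ITGA6. Thus ITGB4 and LAMA5 lay below the range of their neighbours, while ITGA6 lay within the range of its own. The medians of these neighbours lay between -0.01 and 0.12. Around LAMB3, PLEC, DST and CD151 the medians were between 0 and 0.07, and the changes of these genes lay within the range of their neighbours, apart from that of PLEC (log2 -0.196), which lay beside the lowest of its neighbours, NRBP2 (-0.194).

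**Figure D3:**
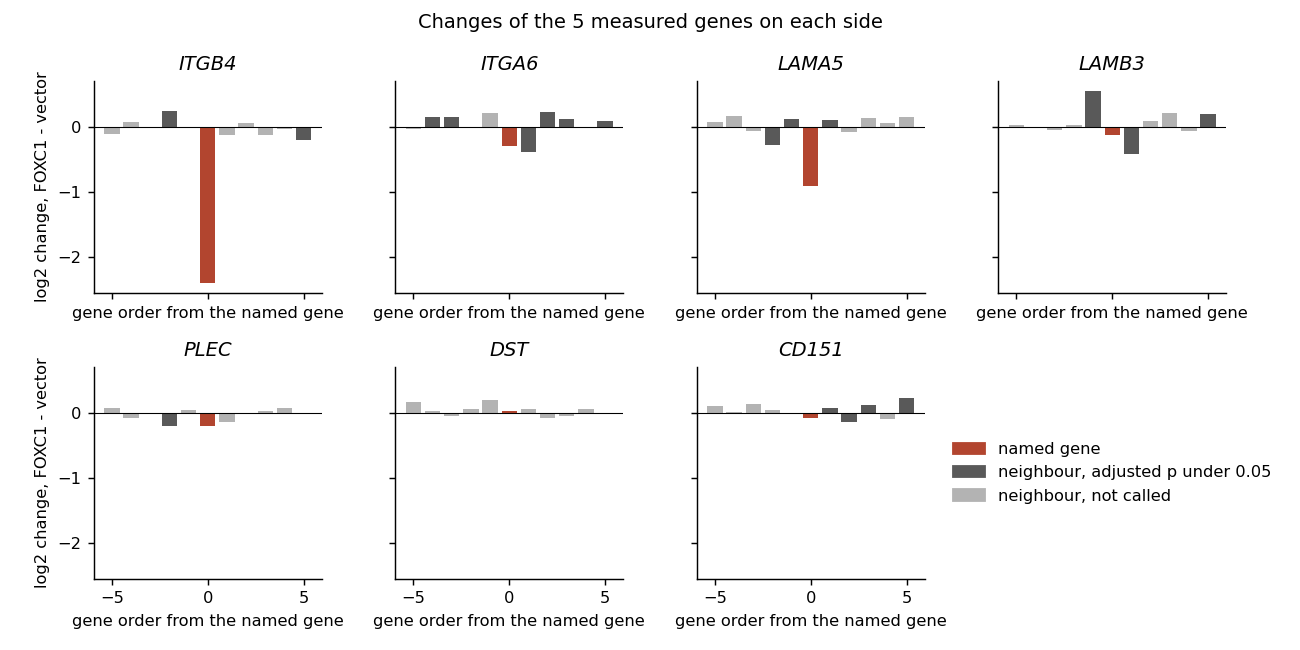
Log2 change (FOXC1 minus vector) of each measured gene (red) and of the 5 measured genes on each side in chromosome order, with called neighbours dark grey and others light grey. ITGB4 at -2.41 stands alone among neighbours between -0.19 and 0.25.

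Genes whose pattern over the 4 arrays lay nearest to that of ITGB4 were taken by Euclidean distance between mean-centred log2 values. They were SPDEF, an epithelial transcription factor (distance 0.087), ADAMTS12, a secreted metalloproteinase (0.166), and HLA-DPB1, an antigen presentation gene (0.169). SPDEF had signals of 224 and 225 in FOXC1 cells, against 1207 and 1221 in vector cells, and its FOXC1 signals lay below 277 too. With 2 arrays per group such a likeness means little more than a fall of similar size, here between 4.74-fold for ADAMTS12 and 5.60-fold for HLA-DPB1.

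Other genes of cell and matrix attachment were read from 10 lists chosen for their place beside hemidesmosomes, with 101 of 109 genes measured. Of these 34 fell (33.7%) and 8 rose (7.92%), beside 15.5% and 15.9% of all genes, and their median log2 change was -0.04. Without vector replicate 2, 5 rose. A list chosen with earlier results of these data known is not independent evidence of its direction. The shares over all genes were not matched for signal, here or for the gene and marker lists below.

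**Figure D4:**
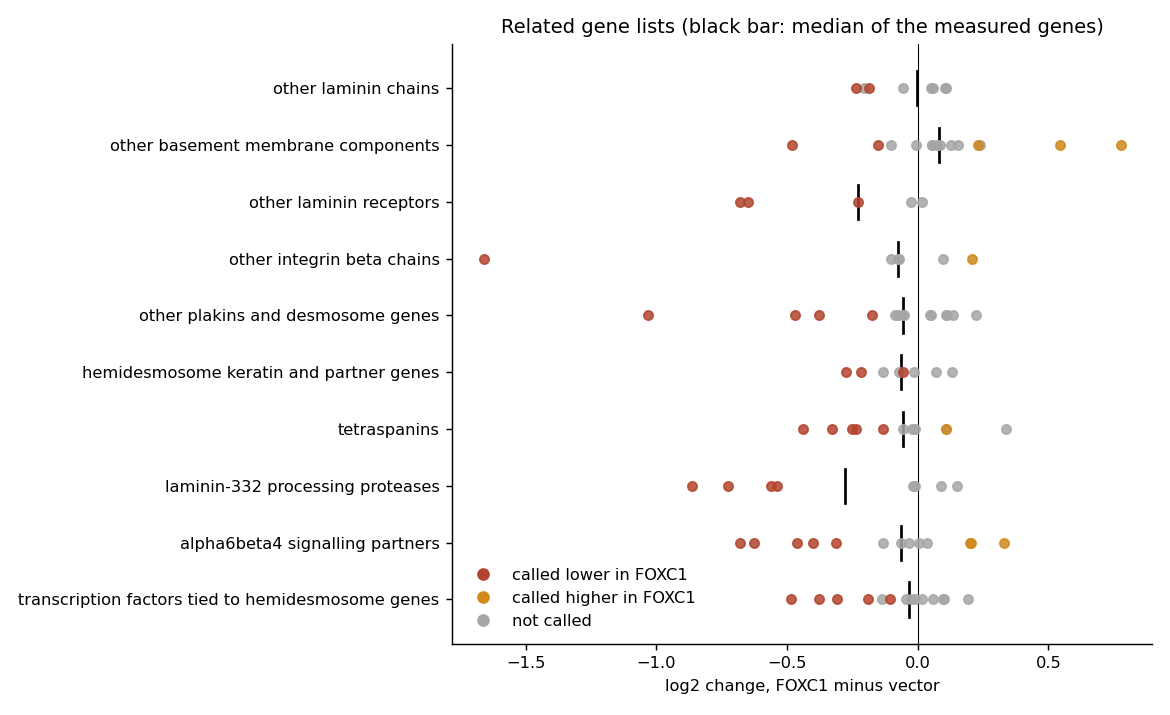
Log2 change (FOXC1 minus vector) of every measured gene of the 10 related lists, coloured by call, with a black bar at each list's median. ITGB8 at -1.66 and DSC2 at -1.03 are the lowest points, COL4A1 at 0.78 is the highest, and the proteases have the lowest median at -0.28.

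Other receptors for laminin fell in 3 of 5 genes measured (60%, beside 15.5% of all genes) and rose in 0, with a median log2 change of -0.23 beside 0.03 over all genes. ITGA2, the alpha2 chain of a collagen and laminin receptor, fell 1.60-fold, with signals of 5077 and 5094 in FOXC1 cells, against 8206 and 8104 in vector cells. BCAM, an immunoglobulin superfamily receptor for laminin chains with alpha5, fell 1.57-fold, with 472 and 385 in FOXC1 cells, against 690 and 665 in vector cells. ITGA3, the alpha3 chain that binds laminin-332 with beta1, fell 1.17-fold. Each of the 3 had FOXC1 arrays below vector arrays and a limma adjusted p of 3.37e-06 or lower. Among 6 other beta chains ITGB8, which pairs with alpha V, fell 3.16-fold (log2 -1.66 ± 0.09 SE), with signals of 160 and 140 in FOXC1 cells, against 514 and 500 in vector cells. The FOXC1 signals of ITGB8 lay below 277, and the same limit holds for its fold as for that of ITGB4. ITGB3 rose 1.16-fold, but was not called when any of 3 arrays was left out, namely FOXC1 replicate 1 (log2 0.19, adjusted p = 0.0568), vector replicate 1 (0.21, 0.128) or vector replicate 2 (0.20, 0.152). ITGB3 was also not called in limma fits of all rows (0.0564) or with median centring over all rows (0.0846).

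Other basement membrane genes moved both ways. Of 14 measured 3 rose and 2 fell, a called share of 35.7% beside 31.4% of all genes, and their median log2 change was 0.08. COL4A1 and COL4A2, the chains of the main type IV collagen, rose 1.71-fold and 1.46-fold. COL4A1 had signals of 1475 and 1470 in FOXC1 cells, against 864 and 842 in vector cells, and COL4A2 had 2087 and 2094 in FOXC1 cells, against 1430 and 1423 in vector cells. The groups did not overlap in either gene, and the direction was opposite to that of LAMA5. HSPG2, which encodes perlecan, fell 1.40-fold (log2 -0.48 ± 0.05 SE), and the heparan sulphate proteoglycan AGRN fell 1.11-fold. FREM2 rose 1.18-fold. AGRN was not called without vector replicate 1 (log2 -0.11, adjusted p = 0.284 in limma), in a fit with no variance trend (0.0969) or in one of all rows (0.0586). FREM2 was not called without vector replicate 2 (log2 0.19, adjusted p = 0.0993).

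Proteases that act on laminin-332 or its surroundings fell in 4 of 8 genes measured and rose in 0, a share of 50% lower beside 15.5% of all genes, with a median log2 change of -0.28. The membrane metalloproteinase MMP14, which cleaves laminin-332, fell 1.82-fold, with signals of 2664 and 2400 in FOXC1 cells, against 4691 and 4548 in vector cells. The plasminogen activators PLAT and PLAU fell 1.65-fold and 1.45-fold and the cathepsin CTSS 1.48-fold. All 4 had FOXC1 arrays below vector arrays and limma adjusted p of 1.93e-05 or lower. BMP1, which processes laminin chains, was not called (log2 -0.01 ± 0.07 SE).

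Desmosomes, the cell to cell counterpart of hemidesmosomes, were covered by a list of 14 plakin and desmosome genes, of which 4 fell and 0 rose, with a median log2 change of -0.055. The desmosomal cadherin DSC2 fell 2.04-fold, with signals of 625 and 600 in FOXC1 cells, against 1262 and 1271 in vector cells. The plaque genes JUP and DSP fell 1.39-fold and 1.30-fold, and the cadherin DSG2 fell 1.13-fold but missed the threshold in a fit with no variance trend (adjusted p = 0.0627 in limma). The called share of 28.6%, all lower, stands beside 15.5% of all genes called lower and 31.4% called in either direction. The spectraplakin MACF1, a relative of DST, was not called (log2 -0.06 ± 0.03 SE).

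Of 8 keratin and partner genes 3 fell and 0 rose, with a median log2 change of -0.064. The called share of 37.5%, all lower, stands beside 15.5% of all genes called lower and 31.4% called in either direction. KRT8 and KRT18, the simple epithelial keratins that plectin can bind, fell 1.21-fold and 1.16-fold. KRT5 and KRT14, the keratins of basal epithelium, were not called (log2 0.07 ± 0.07 and -0.13 ± 0.08 SE). The FOXC1 arrays of KRT14 lay far apart, at 725 and 950, against 898 and 924 in vector arrays. Its SE, borrowed for the most part from other probe sets, does not show this spread. The fall of VIM was 1.04-fold, and VIM was not called in 7 alternatives, among them without FOXC1 replicate 1 (log2 -0.03, adjusted p = 0.295 in limma) and without vector replicate 2 (-0.04, 0.254).

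Of 11 tetraspanins 5 fell and TSPAN3 rose, a called share of 54.5% beside 31.4% of all genes, with a median log2 change of -0.055. TSPAN1 fell 1.35-fold, CD82, a partner of integrins known as a metastasis suppressor, 1.25-fold, TSPAN6 1.19-fold and CD9 1.18-fold. The fifth was TSPAN4 (log2 -0.13), which like TSPAN3 (log2 0.11) was named after its value was seen. TSPAN4 was not called without vector replicate 2 (log2 -0.12, adjusted p = 0.0892 in limma) or with no variance trend (0.091). TSPAN3 was not called without either vector replicate (log2 0.10, adjusted p = 0.105 without the first and 0.12, 0.0551 without the second), with no variance trend (0.136) or with median centring over all rows (0.293).

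Of 13 signalling partners of alpha6beta4 5 fell and 3 rose, a called share of 61.5% beside 31.4% of all genes, with a median log2 change of -0.065. Most of these 13 genes lay above the 50th percentile of mean signal, where calls were more frequent. The EGFR ligand EREG fell 1.60-fold, with signals of 2531 and 2575 in FOXC1 cells, against 4172 and 4022 in vector cells. PRKCD fell 1.54-fold, PRKCA, a kinase known to phosphorylate the beta4 tail, 1.38-fold and the Src family kinase FYN 1.32-fold. The fifth fall was in MST1R (1.24-fold). In the opposite direction, the receptors MET and EGFR rose 1.26-fold and 1.15-fold and the kinase YES1 1.15-fold. MST1R and these 3 were named after their values were seen. ERBB2 was not called (log2 -0.13 ± 0.05 SE, adjusted p = 0.0687 in limma).

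Of 14 transcription factors tied to hemidesmosome genes 5 fell and 0 rose, with a median log2 change of -0.035. The called share of 35.7%, all lower, stands beside 15.5% of all genes called lower and 31.4% called in either direction. The AP-1 subunits FOSL2 and JUN fell 1.40-fold and 1.30-fold and KLF4 fell 1.24-fold. ZEB1, a repressor of epithelial genes, fell 1.14-fold but missed the threshold when no variance trend was fitted (adjusted p = 0.0531 in limma). SNAI2 fell 1.08-fold but was not called without vector replicate 2 (log2 -0.06, adjusted p = 0.238), with no variance trend (0.2) or in the fit of all rows (0.0811). TP63, the factor of basal epithelium, had no named probe set.

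Markers of other cell types were read beside these results. Of 9 luminal epithelial markers 7 fell (77.8%, beside 15.5% of all genes) and 0 rose. FOXA1, which like ITGB4 lay below 277 in FOXC1 cells, fell 2.55-fold and EPCAM 1.49-fold. The summed signal of all 9 luminal markers was 21868 and 21517 in FOXC1 arrays, against 25845 and 26321 in vector arrays, and none of them was listed at 0. Their part in the fall of ITGB4 and LAMA5 was not tested. The other marker lists stand beside a called share of 31.4% over all genes. Of 5 basal epithelial markers measured, none was called in the reported fit (summed signal 7033 and 6863 in FOXC1 arrays, against 6867 and 6951 in vector arrays). Of 7 fibroblast markers only DCN rose (log2 0.63), and of 6 leukocyte markers only PTPRC rose (log2 0.47). Both DCN and PTPRC had signals below 277 in all arrays. Of 8 mesenchymal markers of the line itself, 3 rose and 4 fell, with a summed signal of 90130 and 91169 in FOXC1 arrays, against 93205 and 93485 in vector arrays.

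**Figure D5:**
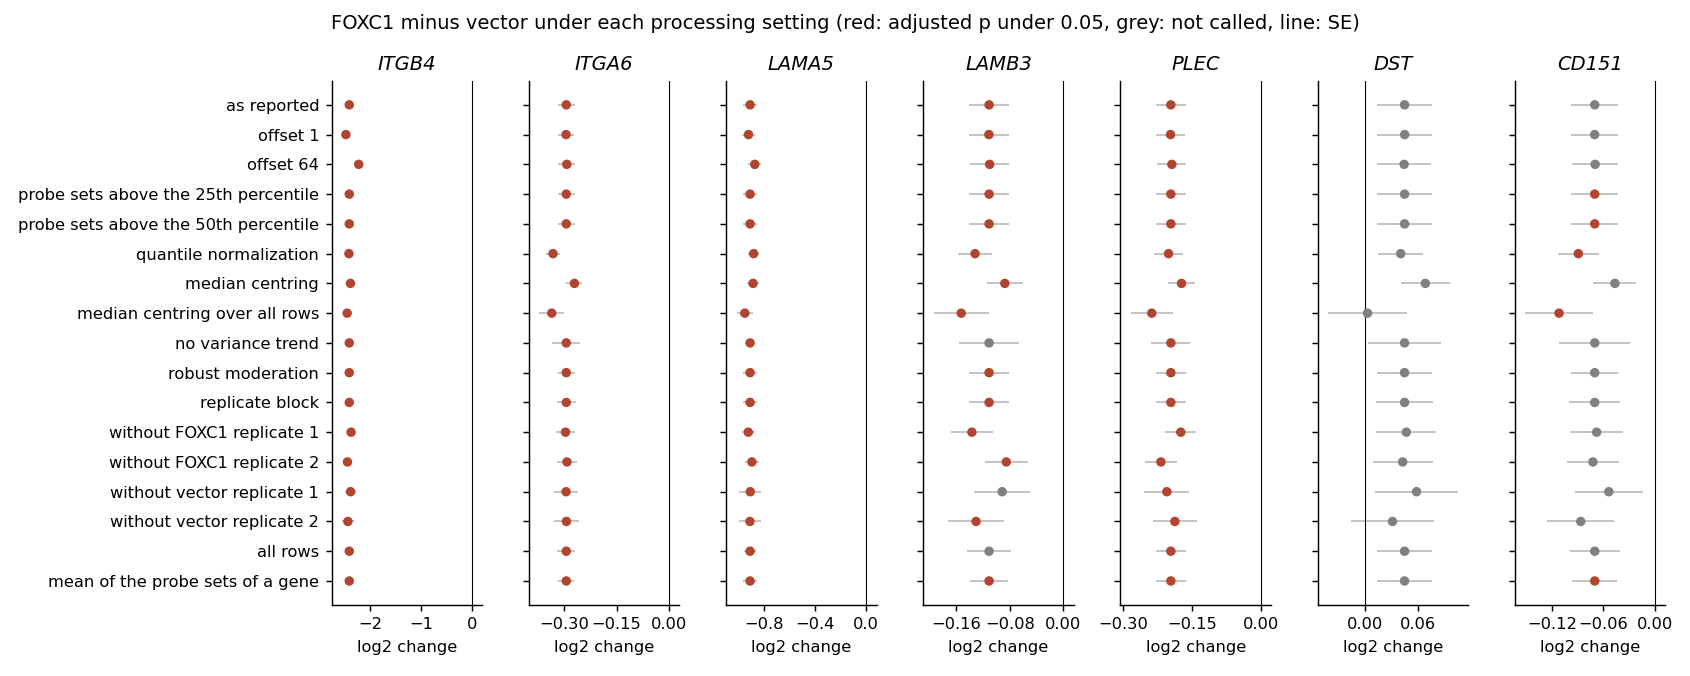
Log2 change (FOXC1 minus vector, with SE) of the 7 measured genes under the reported setting and 16 alternatives, red where the adjusted p is under 0.05. ITGB4, LAMA5, ITGA6 and PLEC are red in every row, LAMB3 and CD151 change colour between rows, and DST is grey throughout.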

How the data were processed

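Total RNA (100 ng per sample, extracted with an RNeasy kit) was amplified, biotin labelled and hybridised to Affymetrix whole-transcript gene arrays. Per the labels, the authors computed gene-level PLIER signal in Affymetrix Expression Console. This deposited signal is a linear intensity, with background and normalization options not given in the sources used here. Between 2.67% and 2.92% of values per array lay below 16, so 16 was added before taking log2, which shrinks folds of dim genes. Arrays carry no read depth, and the 2 arrays per group limit the precision.

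Of 33297 probe sets, 19460 carried 1 gene symbol, 1754 several and 12083 none in the platform annotation. The 21214 named ones entered limma 3.58.1 under R 4.3.3 (lmFit, eBayes with a trend, two-sided, Benjamini-Hochberg), with 2 residual and 18.1 prior degrees of freedom. Counts use the brightest single-symbol probe set of 18417 genes. In simulated data, 58%, 92%, 100% and 100% of 50 changes each at log2 0.25, 0.5, 1 and 2 were recovered, with 9 false calls. The simulation held only these changes among 21214 probe sets and independent normal error. Its rates need not hold for the real arrays, where 31.4% of genes were called. Members and lists were chosen with earlier results of these data known. Named were all members, up to 4 called genes per list with the largest change, the 3 genes nearest to ITGB4, and neighbours with a called log2 change of at least 1, of which there were 0. Alternatives were an offset of 1 or 64, dropping probe sets below the 25th or 50th percentile, quantile and median scaling, eBayes without a trend or robust, a block for replicate number, each array left out, all rows, the mean of the probe sets of a gene, and an adjusted p of 0.10. Same-numbered arrays did not deviate together (correlation -0.0148), so the numbers were not taken as pairs.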

Additional observations from a re-analysis of the deposited data

How the results depend on the processing

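Over 16 alternatives to the reported fit, ITGB4 (log2 -2.48 to -2.22), LAMA5 (-0.96 to -0.88), ITGA6 (-0.34 to -0.27) and PLEC (-0.24 to -0.17) stayed lower and called, and no member changed direction. ITGB4 passed both filters on dim probe sets only through its vector arrays (mean 1441, against 258 in FOXC1 arrays). Its call under these filters is therefore no separate support. LAMB3 kept a log2 change of -0.11 without a variance trend (adjusted p = 0.161 in limma) and over all rows (0.0585) but lost its call, and leaving out single arrays gave -0.137 to -0.085 (not called without vector replicate 1). CD151 was called lower at -0.070 with either filter, with the mean of the probe sets of a gene (0.0439) and at an adjusted p of 0.10, at -0.089 with quantile normalization, and at -0.11 with median centring over all rows (0.0212), an alternative chosen after seeing the data. It was not called in the remaining alternatives, and its log2 change was -0.047 at its smallest. DST was not called in any (log2 0.00 to 0.07). Members called lower numbered 4 to 6. The ITGB4 to ITGA6 shift was -2.18 and -1.93 with offsets of 1 and 64, and that of LAMA5 to LAMC1 -0.69 with 64. Over all genes, calls numbered 2925 higher (50.6% of calls) and 2852 lower, but 1461 and 1790 without a variance trend, 1858 higher over all rows and 1739 higher (33.9%) against 3396 lower with median centring over all rows, while centring over the named probe sets gave 3758 higher (59.6%) against 2543 lower. Leaving out single arrays gave 1913 to 2951 higher, and 5 to 8 genes higher in the related lists, in each case lowest without vector replicate 2. With a replicate block, 3339 genes were higher and 3099 lower, and the same 5 members were called. Of 42 called genes of the related lists 9 lost their call under at least 1 alternative and 0 reversed. The causes were not tested. Probe sets with no name may include LAMA3 and COL17A1.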
